A study of Mus musculus with 50 samples.

Results

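The promoter NFIA sites of astrocytes that overlapped no glucocorticoid receptor (GR) site numbered 3934, or 16.7% of the 23495 NFIA sites found in astrocytes of the mouse primary visual cortex (V1). An NFIA site was a set of overlapping NFIA peaks called in at least 2 of the 3 astrocyte libraries, and a GR site was built in the same way from the 3 GR libraries of normally reared (NR) astrocytes, which gave 12458 GR sites. A site was placed at a promoter where its midpoint lay within 500 bp of an annotated transcription start. These 3934 sites are called unshared promoter sites here. They made up 41.4% of the 9492 promoter NFIA sites, and the other 5558 overlapped a GR site (shared promoter sites). A further 7712 NFIA sites without a GR site lay away from starts (unshared distal sites). The sites were therefore chosen by peak calls in these NFIA and NR GR libraries, whose values are given as a description without a test. The absence of GR was only partly borne out by the individual NR libraries: 2916 of the 3934 sites (74.1%) held a GR peak in 1 NR library, 5 held GR peaks in 2 libraries that did not overlap each other, and 1013 (25.7%) held none.

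The measurements were peak lists from CUT&RUN, in which a nuclease tethered by an antibody releases the DNA around a bound protein, and each list had been called against an immunoglobulin (IgG) control. All in vivo libraries came from 175000 sorted nuclei of V1 at postnatal day 14 (P14), pooled over mice. Astrocyte nuclei carried GFP from a viral vector with the astrocyte promoter GfaABC1D. In wild-type mice the vector held the inactive recombinase ΔCre, and these mice were normally reared or dark-reared (DR) for GR (3 libraries each). The 3 astrocyte NFIA libraries carry the label WT and came from NR mice, but the published methods name astrocyte NFIA experiments only for GRfl/fl mice, so their genotype is given as labelled. In GRfl/fl mice it held ΔCre (GR-con, 2 libraries) or Cre (GR-KO, 2 libraries), so the floxed allele was common to both. Nuclei of oligodendrocytes (Olig2-Cre), inhibitory neurons (InN, Slc32a1-Cre) and excitatory neurons (ExN, Slc17a7-Cre) carried Sun1-GFP, with 3 GR and 3 NFIA libraries for each, all from NR mice. Olig2-Cre is also active in progenitors, so that label follows the history of the cell. NIH 3T3 fibroblasts, a mouse cell line, were held in charcoal-stripped serum and then given vehicle or 200 nM dexamethasone (DEX) for 2 h, with 50000 or 250000 nuclei and 2 GR libraries for each of these 4 groups. Nothing in the labels ties a replicate to single animals, so the tests measure the spread between libraries of pooled mice or of 1 cell line.

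NFIA belongs to the nuclear factor I (NFI) family, which binds DNA as dimers at a palindrome of TTGGC and GCCAA and drives the switch from neuron to astrocyte production in the developing cortex. GR is held in the cytoplasm by chaperones until a glucocorticoid binds it, and it then enters the nucleus and recognises a pair of hexamers called the glucocorticoid response element (GRE). Promoters with many CpG dinucleotides are open in most cell types and hold binding sites for general activators such as SP and KLF factors (GC box) and the trimer NF-Y (CCAAT box).

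The number of peaks per library, the only measure of depth in these files, set what could be seen. The 3 astrocyte NFIA libraries held 27143, 25441 and 22373 peaks, whereas those of other cell types held 4173 or fewer, and 1 ExN library held a single NFIA peak. The NR GR libraries were uneven, with 14012, 2262 and 21539 peaks, and the DR libraries held 293 or fewer. All 3 astrocyte NFIA libraries had peaks within 10000 bp of 8 of 8 astrocyte marker genes and 0 of 4 microglial markers. They also had peaks near 3 of 6 excitatory neuron, 0 to 1 of 6 inhibitory neuron, 3 to 4 of 7 oligodendrocyte lineage, 2 to 3 of 5 endothelial and mural and 0 to 1 of 5 fibroblast markers. None of the 9 NFIA libraries of other cell types had a peak near an astrocyte marker, and the oligodendrocyte libraries, with at most 722 NFIA peaks, had none near 7 oligodendrocyte markers, so their label could not be checked. The part of peak number in the comparisons between groups was not tested.

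Few of these promoters carried the letters of a complete NFI palindrome, and the 7 that did within 50 bp of the NFIA summit are printed to show what such a site looks like here. Letters are from the plus strand of mm10 (RefSeq sequence), and capitals mark TTGGC and GCCAA with 5 bases between them. Frmd4a and Frmd4b encode FERM-domain scaffold proteins, Adamtsl2 a protein of the extracellular matrix, and Hrh1 the histamine receptor H1.
Gm38033 (chr1:36528483-36528511): taaactcTTGGCCCTTTGCCAAgttttct
Frmd4a (chr2:4565774-4565802): atctgtcTTGGCTCCTTGCCAAgaattga
Adamtsl2 (chr2:27097982-27098010): acaatacTTGGCTTCTGGCCAAgaaccag
Frmd4b (chr6:97396737-97396765): gtttcccTTGGCTGGAAGCCAAgctcccc
Hrh1 (chr6:114397775-114397803): tccatccTTGGCTTCTTGCCAAgctcagg
Gm28447 (chr10:61591946-61591974): gcactgtTTGGCCTGATGCCAAccctcct
1700052I22Rik (chr12:80924386-80924414): cttccttTTGGCACTGTGCCAAggtggaa

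A far larger group carried CCAAT, the core of the NF-Y site, on either strand. The following 8 are among the 10 promoters with NFIA peaks in the most libraries of other cell types, of which the other 2, Arid4a and Stau1, held no CCAAT within 50 bp of the summit. Capitals mark CCAAT or its complement ATTGG. At E4f1, Plat, Zfp961 and Far1 the adjoining base also completes GCCAA or TTGGC, an arm of the NFI palindrome. E4f1 encodes a transcription factor and ubiquitin ligase, Plat the tissue plasminogen activator, St3gal5 the sialyltransferase that makes ganglioside GM3, Far1 a fatty acyl-CoA reductase and Nf2 the tumour suppressor merlin.
E4f1 (chr17:24470260-24470288): tgcaccaggcagCCAATggctgcccgcct
Fam32a (chr8:72219682-72219710): cgtcctagctgaCCAATcagaaggaagcg
Plat (chr8:22757639-22757667): accggctgctccATTGGctcctcagtcca
Gm12258 (chr11:58847025-58847053): gttttaccaacgATTGGttaggtgtactg
Zfp961 (chr8:71950983-71951011): gggactctaaagCCAATcggaatcgctca
St3gal5 (chr6:72097518-72097546): cggcgcactctgATTGGtctcccttatcc
Far1 (chr7:113513706-113513734): tgtgagcaagagCCAATcaggagcagacg
Nf2 (chr11:4849595-4849623): aggcctactccaCCAATtgaaagttgcac

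The unshared promoter sites lay close to and mostly just upstream of the start. The median NFIA summit was 34 bp upstream (quartiles 74 bp upstream and 4 bp downstream), 72.5% of the summits were upstream, and 2715 of 3934 (69.0%) fell between 100 bp upstream and 50 bp downstream. The nearest start belonged to a protein-coding gene at 3496 sites (88.9%), to a lincRNA at 152, to an antisense gene at 105 and to a miRNA gene at 14. By annotation, 1600 summits lay outside genes, 1427 in an exon and 907 in an intron of some transcript. At 699 sites (17.8%) divergent starts lay on both sides of the site, against 21.2% of shared promoter sites. A site just inside the distance limit of 500 bp was that of Ctnnal1 (midpoint 499 bp from the start), and those just outside were at Gm38386 and Lrp8 (both 502 bp).

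These promoters were rich in CpG. The median ratio of observed to expected CpG in 300 bp around the site was 0.797, and 74.8% had a ratio of at least 0.6, against 80.4% of shared promoter sites, 5.25% of unshared distal sites and 48.2% of all 54365 protein-coding transcript starts. The median GC content was 63.7%, against 65.0% at shared promoter sites and 51.7% at unshared distal sites. In base composition the unshared sites thus resembled shared promoter sites far more than distal sites of the same GR class.

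In the strength of their NFIA peaks, which the selection used, they resembled the distal sites. The median fold enrichment over IgG was 5.67 at unshared promoter sites, 6.64 at unshared distal sites and 8.15 at shared promoter sites. The median widths were 161, 159 and 259 bp, so a shared site offered a longer stretch to an overlapping peak. All 3 astrocyte libraries called 60.7% of the unshared promoter sites (2387), 51.4% of the unshared distal sites and 94.9% of the shared promoter sites. Per library, 87.8%, 91.3% and 81.6% of the unshared promoter sites were called. The 1547 members called in only 2 libraries had a median fold of 5.55, and the 2184 promoter regions called in 1 library, just outside the selection, had 5.16. The nearest GR site began 45 bp from the closest unshared promoter site and a median of 31710 bp away, with 511 sites within 1000 bp of one.

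In the NR GR libraries that entered the selection, the peaks at unshared promoter sites came almost wholly from 1 library. Replicate 1 had a GR peak at 164 sites (4.17%, against 52.8% of all NFIA sites), replicate 2 at 1 site (8.46% of all) and replicate 3 at 2761 sites (70.2%, against 74.5%). Of the 2916 sites with a peak in exactly 1 library, 2756 (94.5%) had it in replicate 3, which was also the library with the most peaks. Of all NFIA sites, 77.7% had a peak in at least 1 NR library and 50.5% in at least 2. Because NR replicate 3 decided so many of these values, some later results are also given for the 1013 sites without and the 2921 with an NR GR peak. In ExN replicate 1, for example, NFIA peaks lay at 5.53% of the former and 14.7% of the latter, and GR peaks at 2.47% and 10.7%. In InN replicate 1 the NFIA shares were 2.96% and 6.74% and the GR shares 1.28% and 5.75%. In these libraries the sites with an NR GR peak were thus called more often, which is a description because the split uses the selecting libraries. Other NFIA libraries went the other way: InN replicates 2 (0.790% without and 0.479% with an NR GR peak) and 3 (3.36% and 2.91%). Oligodendrocyte replicate 3 did so too (0.296% and 0.103%). No DR library had a GR peak at any of the 3934 sites. Of all NFIA sites, 0.881% had a GR peak in at least 1 DR library, and these libraries held 69, 28 and 293 peaks.

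NFIA peaks of other cell types were found at a minority of the unshared promoter sites and were concentrated in a few libraries. At least 1 of the 9 libraries of oligodendrocytes, InN and ExN had an NFIA peak at 728 sites (18.5%), against 14.4% of all NFIA sites. In oligodendrocytes the 3 libraries had an NFIA peak at 0.330%, 3.05% and 0.153% of the 3934 sites, against 0.783%, 2.81% and 0.413% of all NFIA sites. In InN the shares were 5.77%, 0.559% and 3.02% (4.51%, 0.515% and 2.37% of all NFIA sites), and in ExN 12.4%, 1.19% and 0% (8.91%, 0.707% and 0.00426%). The spread within each cell type was as large as its mean or nearly so (oligodendrocytes 1.18% ± 1.62, InN 3.12% ± 2.61 and ExN 4.52% ± 6.81, SD, n = 3 libraries each), and the ranges of the 3 cell types overlapped. The differences of 1.94, 3.34 and 1.40 percentage points between pairs of cell types did not pass an exact two-sided permutation test over libraries (raw p = 0.3, 0.7 and 0.9, adjusted p = 0.9 for each, smallest possible p 0.1). The highest ExN share came from replicate 1, which held 4173 of the NFIA peaks. Without that library the mean of ExN was below those of oligodendrocytes and InN, by 0.580 and 2.52 points.

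The sites called again were partly common to the cell types. Oligodendrocyte libraries had NFIA peaks at 121 unshared promoter sites (3% of all NFIA sites were called there), InN libraries at 308 (5.98%) and ExN libraries at 490 (8.97%), where each percentage is the share over all NFIA sites. Single libraries made up most of 2 of these sets: oligodendrocyte replicate 2 called 120 of the 121 sites and ExN replicate 1 called 486 of the 490. Oligodendrocytes and ExN had 85 of these sites in common, which is 70.2% of the oligodendrocyte set and 17.3% of the ExN set. Over all NFIA sites these shares were 45.2% and 15.1%. InN and ExN had 104 in common (33.8% and 21.2%), against 31.9% and 21.3% over all NFIA sites. In all 3 cell types 28 unshared promoter sites were called, of 120 among all NFIA sites. The promoter of Arid4a, which encodes a chromatin protein that binds RB1, was called in 8 of the 9 libraries and that of E4f1 in 7.

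**Figure D1:**
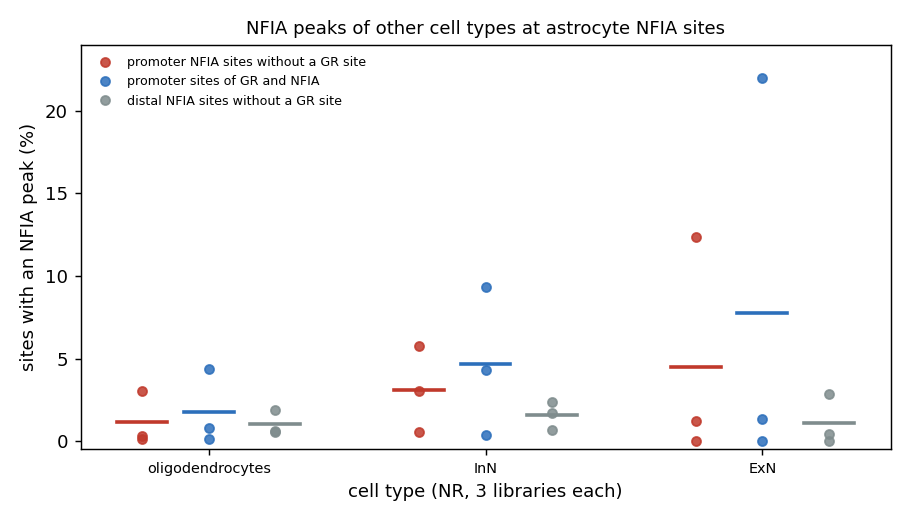
Percentage of astrocyte NFIA sites with an NFIA peak in each library of oligodendrocytes, InN and ExN (points, 3 libraries each) and the mean (bars), for unshared promoter sites (red), shared promoter sites (blue) and unshared distal sites (grey). At unshared promoter sites the points ran from 0% to 12.4%, with 1 high library in ExN.

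Within libraries, unshared promoter sites were called less often for NFIA than shared promoter sites. Over the 9 libraries the mean share was 2.94% at unshared and 4.74% at shared promoter sites, a difference of 1.80 points, and the unshared share was lower in 6 libraries, higher in 2 and equal in 1 (exact two-sided sign-flip permutation test, p = 0.0469, not adjusted, smallest possible p 0.00391). This call was lost when any of 10 single libraries was left out, including each of the 3 astrocyte NFIA libraries (differences from −6.20 to −0.819 points over all libraries left out in turn), and on a log2 ratio scale (−0.31, p = 0.152 by the same permutation test). Against unshared distal sites the mean share was 2.94% and 1.23%, higher at promoters in 5 libraries and lower in 4 (p = 0.0703, same permutation test). The comparison with shared promoter sites was repeated in windows reaching 50 bp to each side of the site midpoint, chosen after the widths were seen, and the means were then 2.86% at unshared and 4.25% at shared promoter sites. The unshared share was lower in 6 of these 9 libraries, and these values are given as a description.

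In GR-con and GR-KO libraries, which the selection had not used, GR peaks were sparser at unshared promoter sites than over all NFIA sites. All NFIA sites include the sites chosen for overlapping a GR site. The GR-con libraries had GR peaks at 148 sites (3.76%) and 397 sites (10.1%), where 26.4% and 26.6% of all NFIA sites were called, together 508 sites (12.9%) against 36.8% of all NFIA sites. The GR-KO libraries had peaks at 9 sites (0.229%) and 4 sites (0.102%), where 6.73% and 1.04% of all were called, together 13 sites against 7.3% of all NFIA sites. Unshared distal sites had GR-con peaks at 10.6% and 5.04%, together 13.6%, and GR-KO peaks at 2.30% and 0.0908%. At unshared promoter sites both GR-con values were above both GR-KO values. The difference of 6.76 points gave p = 0.333 in an exact two-sided permutation test, the smallest that 2 libraries against 2 allow. The GR-con libraries held 7761 and 6792 peaks and the GR-KO libraries 1846 and 413, and 31.3% and 42.6% of shared promoter sites had a GR-con peak. Only 37 unshared promoter sites had a GR peak in both GR-con libraries, where 16.2% of all NFIA sites did. Among the 1013 sites with no NR GR peak, 15 (1.48%) and 20 (1.97%) had a GR-con peak, against 132 (4.53%) and 376 (12.9%) of the 2916 sites with a peak in 1 NR library.

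Neurons gave GR peaks at some of these promoters. InN libraries had GR peaks at 4.60%, 0.661% and 1.22% of the unshared promoter sites (4.65%, 1.14% and 1.56% of all NFIA sites), together at 220 sites against 5.8% of all. ExN libraries had them at 8.57%, 0.0254% and 2.39% (7.39%, 0.153% and 2.69% of all), together at 356 sites against 7.85% of all. At least 1 neuron library had a peak at 494 sites (12.6%), against 10.8% of all NFIA sites. Oligodendrocyte libraries, with 110, 81 and 4 peaks, reached 0.229%, 0.102% and 0%, and 0.587% of all NFIA sites had a GR peak in at least 1 of them. InN and ExN did not differ beyond their spread (2.16% ± 2.13 and 3.66% ± 4.41, SD, n = 3 libraries each, exact two-sided permutation test, p = 0.7, smallest possible p 0.1).

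Over the 16 in vivo GR libraries that the selection did not use, the mean share at unshared promoter sites was 2.00%, against 1.31% at unshared distal sites and 8.54% at shared promoter sites. The difference from distal sites (higher in 10 libraries, lower in 4, equal in 2) did not pass the exact two-sided sign-flip permutation test (p = 0.399). In the 6 neuron libraries alone, a comparison chosen after the values were seen, the share was higher at unshared promoter than at unshared distal sites in 6 of 6 (means 2.91% and 0.439%, exact permutation test, p = 0.03125, the smallest possible). That call was lost when any of the 6 libraries was left out (exact permutation test, p = 0.0625 each, the smallest possible with 5) and with GR sites defined by 1 library (0.496 points, p = 0.125) or starts of protein-coding transcripts only (2.68 points, p = 0.0625, same permutation test). The lower share than at shared promoter sites (15 of 16 libraries, equal in 1) is given as a description without a test, because GR peaks defined a shared site.

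In 3T3 cells few of these promoters had a GR peak, with vehicle or with DEX. With 250000 nuclei the DEX libraries had GR peaks at 36 (0.915%) and 32 (0.813%) of the 3934 sites and the vehicle libraries at 0% and 0.153%. With 50000 nuclei the shares were 0.0763% in both DEX libraries and 0.0508% in both vehicle libraries. Over all NFIA sites, at least 1 library had a GR peak at 2.94% and 0.575% (DEX and vehicle, 250000 nuclei) and at 0.549% and 0.23% (50000 nuclei). All DEX libraries together had a peak at 52 unshared promoter sites (1.32%), against 2.97% of all NFIA sites. The mean was 0.470% with DEX and 0.0635% with vehicle (exact two-sided permutation test within each number of nuclei, p = 0.0556, the smallest possible, adjusted p = 0.167). Within these 8 libraries, the share at unshared promoter sites was lower than at unshared distal sites in 7 (means 0.267% and 0.498%, exact sign-flip permutation test, p = 0.0156, not adjusted). Leaving out any 1 of the 3 NR GR libraries, which redraws the GR sites, ended that call (p = 0.0625, 0.148 and 0.164 in the same permutation test).

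**Figure D2:**
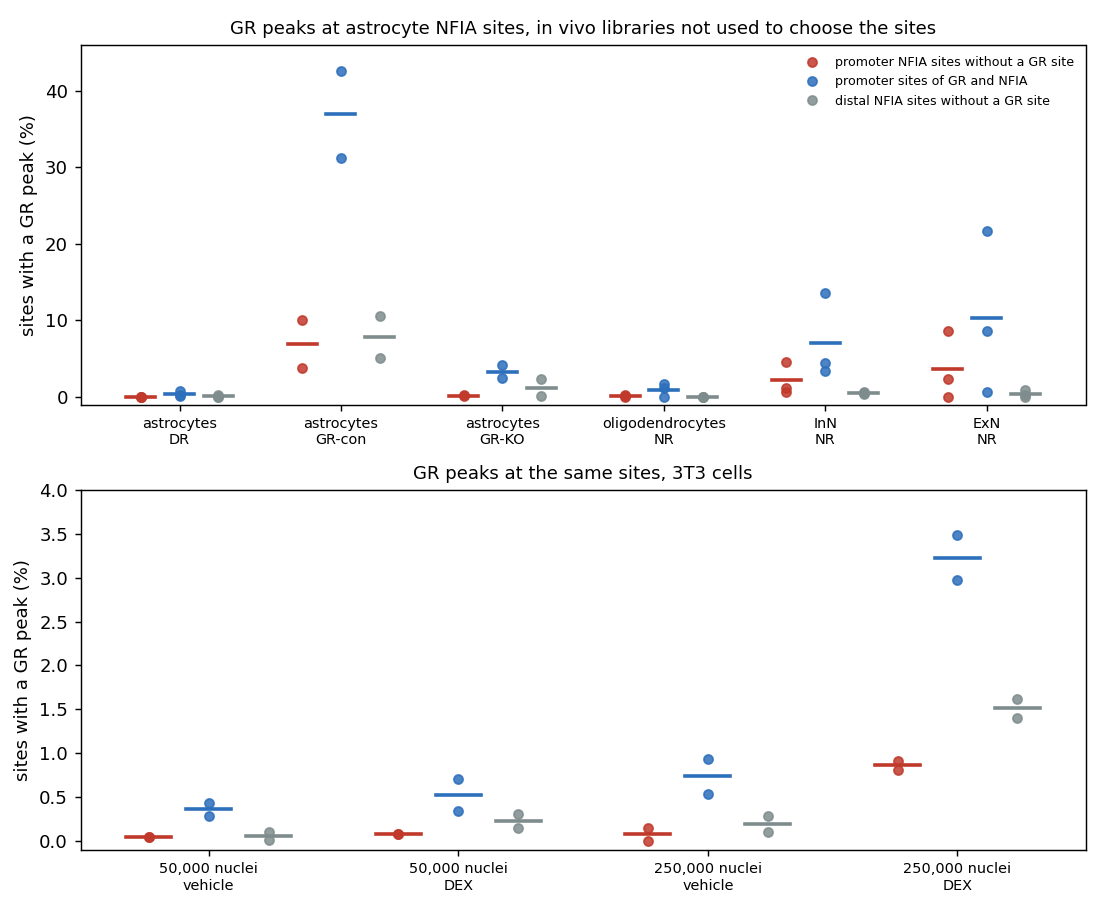
Percentage of astrocyte NFIA sites with a GR peak in each GR library outside the selection (points) and the mean (bars), for unshared promoter sites (red), shared promoter sites (blue) and unshared distal sites (grey). Shared promoter sites reached 42.6% in GR-con, where unshared promoter sites reached 10.1%.

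Sequence motifs were searched on both strands within 50 bp of the summit of each library's peak. The 3 libraries scored largely the same sites, so the SD of a motif share reflects summit positions and which sites were called. Over the 3 astrocyte NFIA libraries, 7.56% ± 0.486 (SD, n = 3) of the windows at unshared promoter sites held the NFI half-site TTGGCA, against 5.72% at shared promoter sites, 26.6% at unshared distal sites and 3.75% of the windows centred on all protein-coding starts. In flanks 1000 bp away the share was 5.17%. The complete NFI palindrome was in 0.156% of unshared promoter windows, against 0% at shared promoter sites, 0.983% at unshared distal sites and 0.00368% of all starts. The GRE, searched as GNACA and TGTNC with 3 bases between them (N is any base), was in 0.137% of windows, against 0.146% at shared promoter sites and 0.132% of all starts.

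Among the letters of general promoter activators, the GC box and CCAAT were far more common than the NFI half-site in the form TTGGCA (7.56%). The shorter arm TTGGC or GCCAA, which can overlap CCAAT, was not counted. Those of ETS, CREB and NRF1 were rarer than the half-site. The GC box GGGCGG was in 42.4% of unshared promoter windows (24.1% of all starts), CCAAT in 29.3% (11.8%), the ETS site CCGGAAGT in 4.73% (2.66%), the CREB site TGACGTCA in 2.61% (0.953%) and the NRF1 site in 1.78% (0.543%). In the flanks the first 2 were at 4.45% and 12.3%. Part of ATTGGCA serves as an NF-Y and an NFI letter match at once, and 14.7% to 15.1% of windows with the NFI half-site also held ATTGGCA. The unshared and shared promoter sites differed by at most 1.92 points for any of the 19 motifs searched, and with 3 libraries no such difference could pass (exact sign-flip permutation test, smallest possible p 0.25, smallest adjusted p 0.317). For the NFI half-site, the GC box and CCAAT the direction turned when NR replicate 1 or NR replicate 3 was left out of the definition of GR sites.

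The sites with no NR GR peak and those with one differed in sequence. This split was chosen after the values were seen and uses the selecting libraries, so it is a description. The NFI half-site was in 13.4% ± 1.48 (SD, n = 3 NFIA libraries) of windows at the 1013 sites with no NR GR peak and in 5.75% ± 0.143 at the 2921 with one. CCAAT went the other way, with 18.5% ± 0.597 and 32.7% ± 0.519, and so did the GC box, with 31.7% and 45.6%. These SDs again reflect summit positions and which sites were called, and are not a spread over separate samples of sequence. The share of CpG-rich promoters was 58.8% and 80.3%. Over whole sites, 6 of the 7 complete NFI palindromes lay at the sites with no NR GR peak (0.592% of them) and that of Frmd4b at a site with one (0.0342%). For the palindrome, distal sites showed the same split, with 78 of 4229 unshared distal sites without an NR GR peak (1.84%) and 6 of 3483 with one (0.172%), whereas the half-site was at 37.1% and 34.6% of them. The sites without an NR GR peak were also narrower, with a median width of 137 bp against 171 bp, and 37.4% against 68.7% were called in all 3 NFIA libraries.

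**Figure D3:**
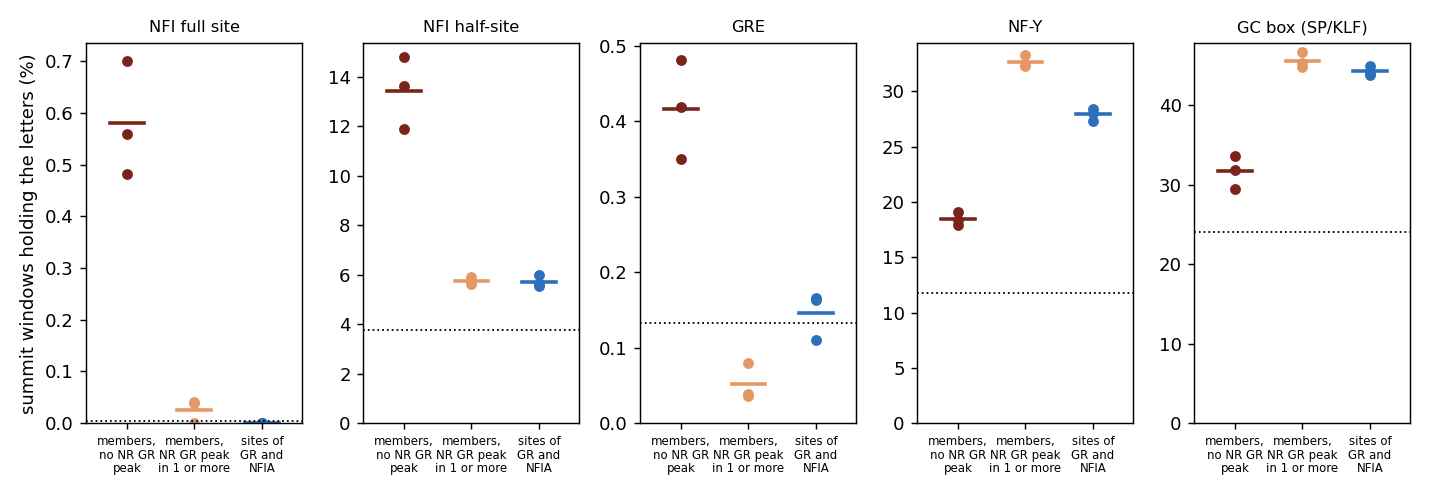
Percentage of windows within 50 bp of the summit that held each motif in the 3 astrocyte NFIA libraries (points) with their mean (bars), for unshared promoter sites without and with an NR GR peak and for shared promoter sites, and the share of all protein-coding starts (dotted lines). The NFI half-site was most frequent without an NR GR peak (13.4%), and CCAAT with one (32.7%).

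CCAAT letters went with weak NFIA enrichment. At 1119 of the 3934 sites (28.4%) CCAAT lay within 50 bp of the median summit. In the lowest quartile of sites by NFIA fold (1.64 to 4.26) 687 of 983 (69.9%) held CCAAT. In the next quartiles the shares were 22.5%, 11.03% and 10.4%. Sites with CCAAT thus had a median fold of 3.74, 3.69 and 3.36 in the 3 libraries, against 6.38, 6.47 and 6.21 at sites without it. Their significance was not lower to match: the median −log10 q was 9.68, 9.04 and 7.53 with CCAAT and 8.53, 8.97 and 7.54 without. Shared promoter sites showed the same pattern, with CCAAT in 63.8% of the lowest and 11.2% of the highest quartile by fold. Unshared distal sites showed it less, with 22.3% and 17.4%. The NFI half-site ran the other way among unshared promoter sites, from 5.49% in the lowest to 11.2% in the highest quartile. The split by CCAAT and everything that follows from it was chosen after the values were seen.

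The CCAAT letters lay near the summit, and many sites held more than 1 copy. Of 1562 matches, 960 (61.5%) were centred within 20 bp of the summit. The median match was 54 bp upstream of the start, 643 (41.2%) were 100 to 41 bp upstream, and 49.4% read CCAAT on the strand of the gene. A single match was found at 741 sites, 2 matches at 316 (8.03%) and 3 or more at 62 (1.58%). At unshared distal sites 1.87% held 2 matches.

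Sites with CCAAT were called more often in libraries of other cell types. In the 9 NFIA libraries outside astrocytes the mean share called was 5.94% with CCAAT and 1.74% without, higher with CCAAT in 8 libraries and equal in the ExN library with a single peak (exact two-sided sign-flip permutation test, p = 0.0078125, adjusted p = 0.0234 over 3 such tests). With any 1 library left out the difference stayed between 2.22 and 4.72 points (p at most 0.0156). In the 16 in vivo GR libraries the means were 4.35% and 1.06%, higher with CCAAT in 8, lower in 4 and equal in 4 (permutation test, p = 0.0483, adjusted p = 0.0725). In the 8 3T3 libraries they were 0.391% and 0.218%, higher in 6 (permutation test, adjusted p = 0.109). Because the split was chosen after the values were seen, these p-values describe the spread between these libraries and give no independent support. Split by the NFI half-site instead, the unshared promoter sites showed no such difference in the 9 NFIA libraries. The means were 2.71% with and 2.96% without it, higher in 4 libraries and lower in 4 (same permutation test, p = 0.836, not adjusted).

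Single libraries carried most of the GR difference. In GR-con, replicate 2 called 301 of the 1119 sites with CCAAT (26.9%) and 96 of the 2815 without (3.41%), while replicate 1 called 3.49% and 3.87%. In ExN, GR replicate 1 called 20.7% and 3.73% and NFIA replicate 1 called 26.6% and 6.68%. NR replicate 3, which supplied most NR GR peaks, called 81.3% and 65.8%, and NR replicate 1 called 1.97% and 5.04%. All 13 GR peaks of oligodendrocyte replicates 1 and 2 at these promoters lay at sites with CCAAT, and the GR-KO libraries called 1 site with CCAAT and 12 without. The peak names of all GR and NFIA libraries of 1 non-astrocyte cell type carried the same IgG tag, so that the 9 NFIA libraries carried 3 tags, and the part of a shared control in these calls and folds was not tested.

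**Figure D4:**
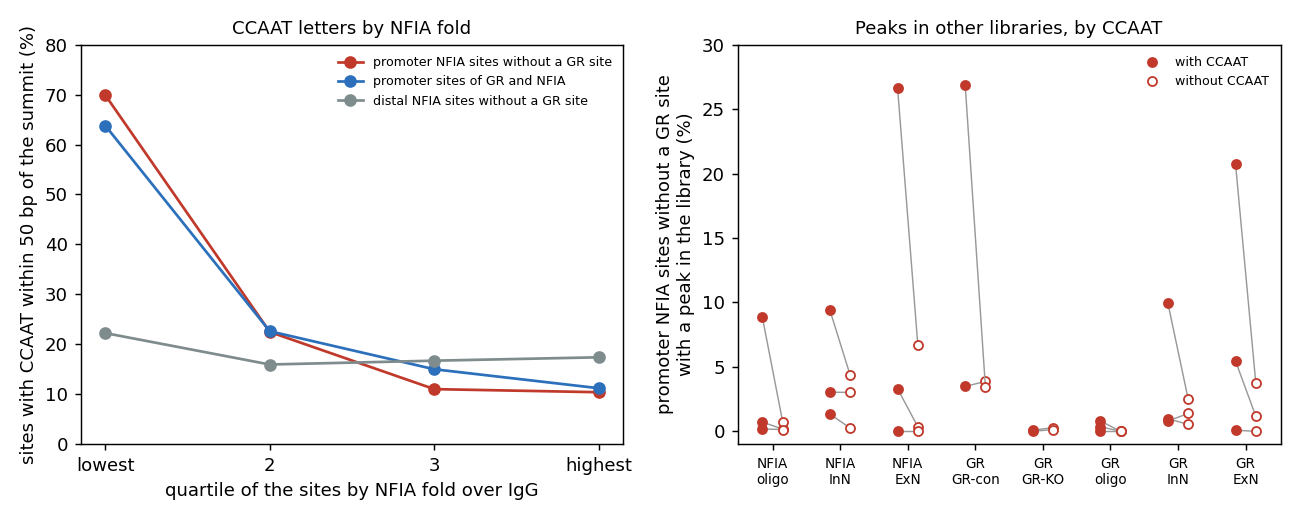
Left, percentage of sites with CCAAT within 50 bp of the summit by quartile of NFIA fold over IgG, for unshared promoter (red), shared promoter (blue) and unshared distal sites (grey), with 69.9% in the lowest and 10.4% in the highest quartile of unshared promoter sites. Right, percentage of unshared promoter sites with and without CCAAT (filled and open points, joined for each library) that had a peak in each library shown (NFIA and GR of other cell types in vivo, GR-con and GR-KO), of which 3 exceeded 20% with CCAAT.

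Histone and mitotic cell-cycle genes had CCAAT at nearly all of their unshared promoter sites, and low NFIA fold. Of 65 histone genes 16 had an unshared promoter site, and because histone genes often face each other these were 13 sites, all 13 with CCAAT, with a median fold of 2.83. At Hist1h2an and Hist1h2bp, which share a promoter, the folds were 2.30, 2.16 and 1.85, and at Hist3h2a 3.23, 2.83 and 2.36. Of the 7 sites at mitotic cell-cycle genes 6 held CCAAT. Cdk1, the kinase that drives entry into mitosis, had folds of 3.61, 5.24 and 2.51, and Top2a, the mitotic topoisomerase, had 2.08, 2.26 and 4.68 with NFIA peaks in 3 libraries of other cell types. E2f3, the exception without CCAAT, had 6.95, 9.85 and 5.86. Genes of DNA repair and replication had CCAAT at 8 of 14 sites, among them both sites of Mcm7, a subunit of the replicative helicase. NFIA peaks of other cell types were found at 8 of the 13 histone sites. They were found at 376 of the 1119 unshared promoter sites with CCAAT, at 18.5% of all unshared promoter sites and at 14.4% of all NFIA sites.

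Over all genes, 3739 of 21911 protein-coding genes (17.1%) had an unshared promoter site and 5299 (24.2%) a shared one, with 635 in both sets. Genes of the basic machinery of the cell were above this background in both classes of site. Of 101 genes for RNA polymerase subunits and general transcription factors, 47 (46.5%) had an unshared and 38.6% a shared site, and of 38 aminoacyl-tRNA synthetases, which charge tRNAs, 16 (42.1%) and 34.2%. For cytosolic ribosomal proteins the order was reversed, with 27.4% unshared and 57.1% shared, and likewise for subunits of the respiratory chain and ATP synthase, with 23.2% and 50%. The Mediator subunit Med31 had the strongest site of the polymerase list, with folds of 26.2, 19.4 and 11.3, no NR GR peak and a GR site 433 bp away.

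Genes that mark astrocytes were mostly found among the shared sites. Of 36 astrocyte identity and maturation genes, 31 (86.1%) had a shared and 8 (22.2%) an unshared promoter site. At Aldoc, a glycolytic aldolase of astrocytes, the folds of the unshared site were 8.84, 8.37 and 10.4, and at the water channel gene Aqp4 7.50, 5.20 and 4.31. Gfap, the astrocyte intermediate filament, had 3.17 and 5.32 in replicates 2 and 3 and no peak in replicate 1. Aldoc and Gfap, with Id3, Apoe and Mlc1, also had a shared site at another start or position within 500 bp. Markers of other cell types were near or below the background, with an unshared site at 1 of 15 excitatory neuron, 1 of 16 inhibitory neuron, 2 of 16 oligodendrocyte lineage and 1 of 13 microglial genes.

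All 4 NFI genes had an unshared site at a promoter. Nfib had folds of 15.7 and 7.84 in replicates 1 and 2, Nfix 12.7 and 8.70 in replicates 1 and 3, Nfia 4.96 and 8.12 in replicates 1 and 2, and Nfic 6.16 and 6.05 in the same 2. None of the 4 was called in all 3 libraries, and none had an NFIA peak in another cell type. Nfia and Nfix had a shared promoter site as well.

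**Figure D5:**
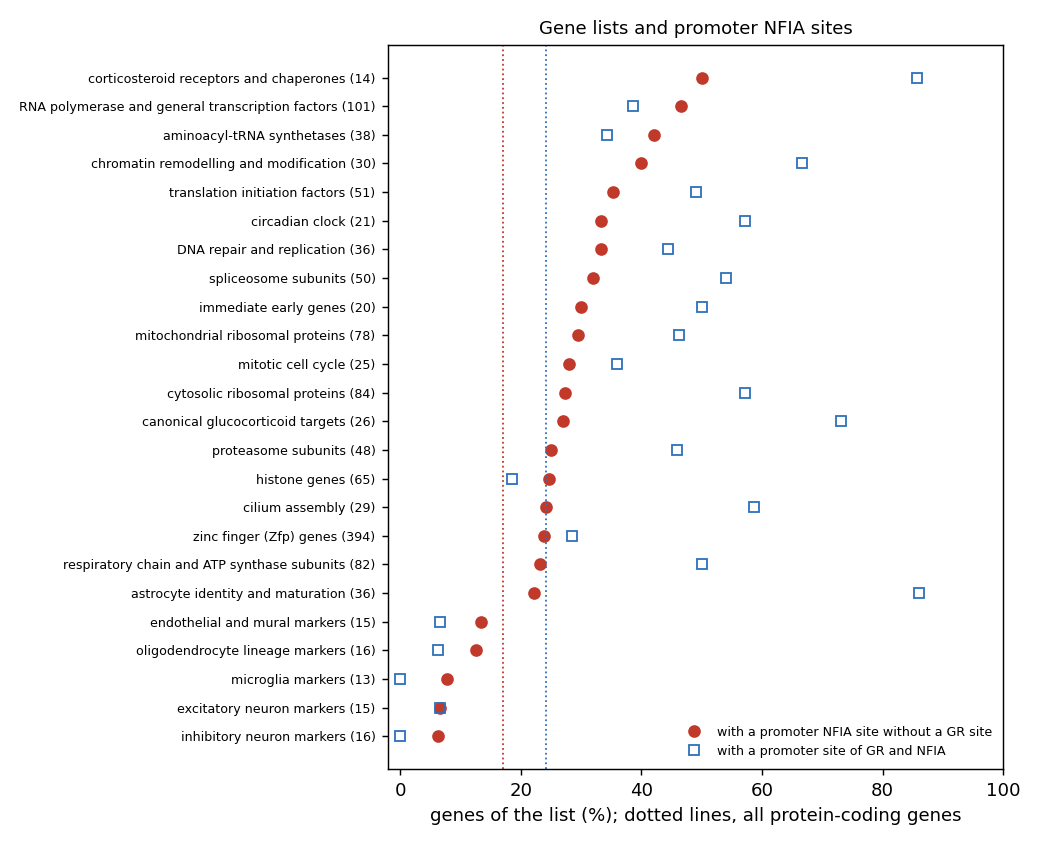
Percentage of the genes of each list that had an unshared promoter site (filled red points) or a shared promoter site (open blue squares) within 500 bp of a start, with the number of genes in parentheses and the shares of all protein-coding genes as dotted lines (17.1% and 24.2%). RNA polymerase and general transcription factor genes lay far to the right of the red line at 46.5%, and astrocyte identity genes at 86.1% for shared sites.

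Most classical glucocorticoid targets had a shared promoter site, and some had NFIA peaks outside the GR sites. Of 26 such genes, 19 (73.1%, against 24.2% of all protein-coding genes) had a shared promoter site. An unshared promoter site was found at 7 (26.9%, against 17.1%), and 4 had both. Zbtb16, which encodes the zinc finger repressor PLZF, had the strongest, with folds of 15.1, 12.2 and 14.3 at a summit 113 bp upstream, an NR GR peak in 1 library and a GR peak in GR-con replicate 2 (fold 7.70). Sgk1, a kinase induced by glucocorticoids, had 4.32, 3.75 and 4.52 and no NR or GR-con GR peak. Tsc22d3, which encodes the glucocorticoid-induced leucine zipper, had 8.68 and 7.72 in replicates 1 and 2 and neither kind of GR peak. Among the receptor and its chaperones, 12 of 14 genes (85.7%) had a shared and 7 (50%) an unshared site, and 5 had both. The unshared site of Hspa8, the constitutive heat shock protein 70, reached 14.05, 11.3 and 15.9.

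The clock gene Per1 had a GRE but no GR peak at its unshared promoter site. This site, at chr11:69099343-69099525 in an intron 454 bp downstream of a start, had NFIA folds of 10.4, 14.6 and 7.88 and a GRE within 50 bp of the summit. No NR, GR-con or 3T3 library had a GR peak there, and the nearest GR site was 373 bp away. A GRE lay at the summit of 6 unshared promoter sites, 4 of which had no NR GR peak. They are printed with the 13 letters of the GRE in capitals, to set beside those results.
Per1 (chr11:69099410-69099436): caggctgGAACATCCTGTTCtcagcgc
Dctn1 (chr6:83197467-83197493): tgacattGCACATGCTGTTCacagggg
Wdr81 (chr11:75455126-75455152): ccacttgGCACACAATGTTCtgggaag
Zc3h3 (chr15:75828331-75828357): catcctaGAACATTGTGTCCcagctac
Ndc1 (chr4:107368036-107368062): ggcgggcGGACACTCTGTCCccggcac
Gm15441 (chr3:96557778-96557804): gctaggaGCACACCGTGTCCacgcgcc

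The 12 sites with the highest median NFIA fold lay mostly at promoters poor in CpG, which did not hold for strong sites in general. Of the 12, 1 had a CpG ratio of at least 0.6, against 67.2% of the 989 sites in the highest quartile by fold and 74.8% of all unshared promoter sites. An NFI half-site lay at the summit of 4 of the 12. A GR peak in 1 NR library was found at 11, against 74.1% of all unshared promoter sites. Pxn, which encodes the focal adhesion adaptor paxillin, led with folds of 37.2, 28.4 and 36.6 at chr5:115543740-115543981, an intron site 90 bp upstream of a start, with no peak in any library of another cell type. Ppil1, a spliceosomal prolyl isomerase, had 29.7, 32.2 and 20.0, and Gpr161, a ciliary receptor that restrains Hedgehog signalling, had 36.1, 23.2 and 27.2 with a GR peak in GR-con replicate 1 (fold 5.00). Arid4a, with 32.2, 21.4 and 21.6, was the only one of the 12 with NFIA peaks in more than 2 libraries of other cell types. The summit windows of Pxn and Gm36738, a lincRNA with folds of 24.02, 22.7 and 14.4, are printed with the half-site in capitals.
Pxn (chr5:115543807-115543907): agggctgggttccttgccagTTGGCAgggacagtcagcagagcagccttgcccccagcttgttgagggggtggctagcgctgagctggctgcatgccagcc
Gm36738 (chr15:78581716-78581816): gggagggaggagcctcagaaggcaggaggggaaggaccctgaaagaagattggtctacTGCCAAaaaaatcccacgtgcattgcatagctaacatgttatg

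Among the 37 sites with GR peaks in both GR-con libraries, those with the highest mean GR fold were at Mettl11b (GR folds 11.5 and 7.42), 4833420G17Rik (7.15 and 8.56) and Dvl2, a transducer of Wnt signals (7.64 and 7.80). Gm26775, a lincRNA, had 8.89 and 6.39 and also a peak in 1 GR-KO library, and Phyhd1 had 4.85 and 8.90 and NR GR peaks in 2 libraries that did not overlap each other. Mettl3, the catalytic subunit of the RNA N6-adenosine methyltransferase, had 7.45 and 5.71, and Herpud1, a component of endoplasmic reticulum-associated degradation, 7.22 and 5.71. Apart from Gm26775 and Phyhd1, each of these had a GR peak in 1 NR library and none in GR-KO. In 3T3 cells, Micall1, a regulator of endocytic recycling, was the only unshared promoter site called in all 4 DEX libraries, with no vehicle peak and no GR peak in any NR library. Zyx, which encodes the focal adhesion protein zyxin, was called in 3 DEX libraries and 1 vehicle library, and Acot9, a mitochondrial acyl-CoA thioesterase, in 3 and none.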

How the data were processed

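CUT&RUN peak lists were analysed for 39 libraries (27 GR and 12 NFIA) in 15 groups taken from the labels; 11 further samples (IgG controls and GFP-negative nuclei) were not analysed here. By the published methods, cutadapt trimming was followed by Bowtie2 alignment (mm10), processing in Picard, SAMtools and deepTools that kept short fragments, and peak calling by the authors in MACS2, library by library, with IgG as control. The deposited narrowPeak columns hold the fold over the control (a ratio), the −log10 p and −log10 q of the peak caller, and a summit. The highest q in the deposited lists, from the −log10 q-value column, was 0.00999 in vivo and 0.0498 in 3T3 cells. The files give no read counts, so the depth is unknown and peak number stands for it.

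Overlapping peaks (1 bp or more) were merged and kept when called in 2 libraries. Starts came from GENCODE M21 and sequences from RefSeq GRCm38.p6, both mm10. For each library, the percentage of sites with an overlapping peak was computed, and groups or site classes were compared over libraries with exact two-sided permutation or sign-flip tests (Benjamini-Hochberg adjustment within a family, threshold p = 0.05). The p-values for peak shares at unshared promoter sites against another site class were not adjusted. Motifs were matched as letters on both strands. Gene lists were described by counts with no set test. Named sites were the 12 with the highest NFIA fold in all 3 libraries, up to 10 with NFIA peaks in the most libraries of other cell types, up to 10 with GR peaks in both GR-con libraries by fold, up to 6 with most 3T3 DEX peaks, the members of the gene lists, and, chosen by sequence after the values were seen, those with an NFI palindrome or a GRE. The members and lists were chosen with earlier results of these data known. Each comparison was repeated with stricter or looser calling of sites, other start sets, distances and scales, and without each library. The tests were checked on simulated data. Python 3.11.15, NumPy 2.4.6, SciPy 1.17.1 and matplotlib 3.10.9 were used.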

Additional observations from a re-analysis of the deposited data

Results flagged for a closer look

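The difference in GR share between unshared promoter and unshared distal sites had opposite signs in neurons and 3T3 cells. It was positive in every InN and ExN library (means 1.67 and 3.27 percentage points) and negative in every library of 3 of the 4 3T3 groups, with means of −0.15 points with 50000 nuclei and DEX, −0.12 with 250000 nuclei and vehicle and −0.65 with 250000 nuclei and DEX. InN exceeded these groups by 1.82, 1.79 and 2.32 points (exact two-sided permutation test over libraries, p = 0.3 each), and ExN by 3.42, 3.39 and 3.92 points (p = 0.2 each in the same exact test), where the smallest possible p was 0.1. The p-values were not adjusted over pairs of groups. Cells, IgG controls and peak numbers differed together between brain and cell line, and their parts cannot be told apart.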

How the results depend on the processing

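The number of unshared promoter sites depended on the calls that defined it: it was 2387 with NFIA called in all 3 libraries, 1013 with GR called in at least 1 library, 8899 with GR called in all 3, and 2732 to 8911 with 1 library left out (8834 without NR GR replicate 1 and 8911 without replicate 3). The lower NFIA share than at shared promoter sites missed the threshold with NFIA called in all 3 libraries (−1.09 points, p = 0.203) and as a log2 ratio (−0.31, p = 0.152), and ranged from −6.20 to −0.819 points over libraries left out in turn (all by exact permutation tests). The lower 3T3 GR share than at unshared distal sites missed it with GR called in all 3 (−0.11 points, p = 0.164) and as a log2 ratio (−0.90, p = 0.133), and ranged from −0.27 to −0.11 (all by exact permutation tests).

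Several directions turned, none of them past the threshold. The comparisons between cell types and those of motifs could not pass it (exact permutation tests, smallest possible p 0.1 and 0.25). InN minus ExN for NFIA was 0.329 points with GR called in at least 1 library and −3.66 to 2.52 with 1 library left out, oligodendrocyte minus ExN −5.60 to 0.580, and InN minus ExN for GR −3.32 to 0.953, each turning without ExN replicate 1. The in vivo GR difference from unshared distal sites was −0.13 with GR called in at least 1 library. For motifs at unshared minus shared promoter sites, the NFI half-site was −1.90 points with GR called in all 3 and −1.88 to 2.15 with 1 library left out (−1.83 and −1.88 without NR replicates 1 and 3), the GC box 5.29 and −2.20 to 5.82 (5.82 and 5.76), and CCAAT −21.2 and −26.0 to 3.34 (−26.0 and −20.6), or −11.0 with GR called in at least 1. The GRE was 0.0222 points with protein-coding starts only, 0.0208 with NFIA called in all 3, 0.301 with GR called in at least 1 and −0.40 to 0.0153 with 1 library left out (0.0153 and 0.00809 without NFIA replicates 2 and 3). The causes were not tested.

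The replicate numbers did not pair the libraries (correlations of same-numbered libraries from −0.14 to 0.257). With the replicate number as a block, the differences were −1.94, −3.34 and −1.40 points for NFIA between cell types, 6.76 for GR-con minus GR-KO, 0.407 for DEX minus vehicle and −1.50 for InN minus ExN, and no call changed. Of the libraries, 2, 2, 4 and 3 of 6 in the 4 pairs of groups with 3 numbers correlated best with their own number. Peak lists without read counts limit all shares: a site without a peak may lie under the calling threshold of a shallow library.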
